A study of Mus musculus with 2 samples.

Results

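The genes described here encode the enzymes and transporters that convert MPTP or that make, move and degrade dopamine: Maob, Maoa, Slc6a3, Slc18a2, Th, Ddc, Slc22a3 and Aldh1a1. They were chosen by name, as every probe apart from controls whose gene name on the array equals one of these symbols, and the rule itself uses no measured value. They are 8 of the 37074 gene names on the array and are covered by 11 probes, each printed in 1 spot. Of the 8 genes, 7 were well above background, with all 10 of their probes well above it on both arrays, out of 22013 genes detected in this way on 1 array or both.

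Striatal transcripts were measured on 2 Agilent arrays with a single dye, 1 for WT mice (strain label C57BL/6J) and 1 for Cx30 KO mice (strain label Cx30-LacZ), which lack the astrocyte gap junction protein connexin 30. Each array was hybridised with the pooled striatal RNA of 2 male mice, taken on day 1 after MPTP, and per the methods both genotypes were 8 weeks old and had been given MPTP 4 times at 20 mg/kg, with 2 h between the injections. Because both genotypes had received MPTP, the values set Cx30 KO against WT after the toxin and do not measure a response to it. The methods describe the WT mice as non-mutant offspring of heterozygous parents, so that the strain labels and the methods differ, and genotype and background cannot be told apart.

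MPTP crosses the blood-brain barrier and is oxidised, mainly in astrocytes, by monoamine oxidase B to a precursor of the toxin MPP+. MPP+ enters dopamine neurons through the dopamine transporter, can be held in vesicles by the vesicular monoamine transporter, and otherwise blocks respiration in mitochondria. The cell bodies of the nigrostriatal dopamine neurons lie in the midbrain, whereas the striatum holds their axons, so that striatal RNA contains little of the messenger RNA of these neurons.

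The sequences of 3 sets of probes that bear on the results are shown. Sequences are written 5′ to 3′ on the strand of the gene, with positions in the mm9 build as the files give them. Of the second probes of Maob, Th and Ddc, which lie upstream of the first on their strand, all 60 bases are shown, and of the others 30, from the first base on where no range is given. The first set holds the probe of Aldh1a1, which gave the largest difference among the genes described here, beside that of its neighbour and close relative Aldh1a7, with their longest shared run of 8 bases in capitals.

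Aldh1a1, bases 25 to 54, chr19:20717764-20717823, plus strand: ccctcagtgacTCCTTGAAgtactcaccac
Aldh1a7, bases 1 to 30, chr19:20767553-20767612, minus strand: tTCCTTGAActatgtaccatgcatgataac

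The Aldh1a7 probe read 12.1 ± 4.35 in WT, not well above background, and 23.6 ± 4.39 in Cx30 KO. There it was well above background but close to the lowest such signal, 17.4. It thus read higher in Cx30 KO, but at signals this low its direction is uncertain. The second set holds the probe pairs of Maob and Ddc, whose ratios differed between the probes of the same gene. The numbers 1 and 2 give the order of brightness, and no capitals are used because no stretch of these probes is singled out.

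Maob probe 1, chrX:16286427-16286486, minus strand: cttgcatcttctagttagtctgcttccatt
Maob probe 2, chrX:16313176-16313235, minus strand: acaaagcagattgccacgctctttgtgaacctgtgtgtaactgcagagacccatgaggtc
Ddc probe 1, chr11:11714166-11714225, minus strand: gataggcttatagaaatagtttccagggca
Ddc probe 2, chr11:11776262-11776321, minus strand: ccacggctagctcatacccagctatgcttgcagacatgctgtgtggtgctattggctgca

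The third set holds the only probe that crosses an intron, that of Th, and the only probe of a gene that was not well above background, that of Slc6a3. The Th probe covers 212 bp of the genome with 60 bases.

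Th probe 2, chr7:150080370-150080581, minus strand: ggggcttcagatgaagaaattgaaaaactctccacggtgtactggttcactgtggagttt
Slc6a3, chr13:73715973-73716032, plus strand: tggctgagaagaatcaggtttaccatctcc

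The position of the probes relative to exon and UTR boundaries was not analysed here. No probe of Maob shared more than 5 consecutive bases with the probe of Maoa, and the probe of Slc22a3 no more than 5 with that of Slc22a2. These runs, and that of Aldh1a1 with Aldh1a7, set probe against probe. The probes were not compared with the transcripts of related genes, so that binding of such transcripts was not tested.

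Signals are the processed signals of the scanner software in arbitrary units, given with the software's own error of a single spot, which does not cover the variation between mice. Log2 ratios give Cx30 KO over WT after each array was scaled to its 75th percentile, so that a negative value is a lower level in Cx30 KO, and their error is that of the 2 spots combined. A gene met the study's criteria when its Z-score was at least 2.0 and its ratio at least 1.5, or its Z-score was at most −2.0 and its ratio at most 0.66, where the Z-score sets its log2 ratio against the 1000 probes nearest in signal. Each genotype has 1 array, so the data hold no replicates and no test was possible.

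Gjb6, the deleted gene, which encodes connexin 30, read 1788 ± 179 in WT against 111 ± 11.6 in Cx30 KO, 15.4-fold lower, and its second probe was well above background in WT, at 79.0 ± 9.53, but not in Cx30 KO, at 4.68 ± 4.69. Both arrays were alike in depth. The 75th percentiles were 401.2 in WT against 381.8 in Cx30 KO, 32019 and 32961 of 56605 probes were well above background, no spot (0) was saturated, and both arrays lay on 1 slide. Among 300 probes printed in 10 spots each, the log2 ratio of a single spot had an SD of 0.06, smaller than the software's error. For bright probes that error is close to a fixed share of the signal, so that the error of their log2 ratio is near 0.20 for every gene. A difference below the spot error can therefore exceed the SD between repeated spots.

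Among the 7 detected genes Aldh1a1 was lower in Cx30 KO by the criteria, no gene (0) was higher, and 6 met neither criterion. Of all 22013 detected genes 3.39% were lower and 2.38% higher by the same criteria. By the ratio alone, 6.21% of all genes were at 0.66 or less, which among the 7 held for Aldh1a1, and 7.21% were at 1.5 or more, which held for none of them by their brightest probe. The median log2 ratio of the 7 genes was −0.06, against 0.03 for all genes, and 6 of the 7 had a negative value, compared with 45.4% of all genes. Without Aldh1a1 the median was −0.05. For 4 of the 7, Maob, Maoa, Th and Ddc, the log2 ratio was smaller than its own error.

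**Figure D1:**
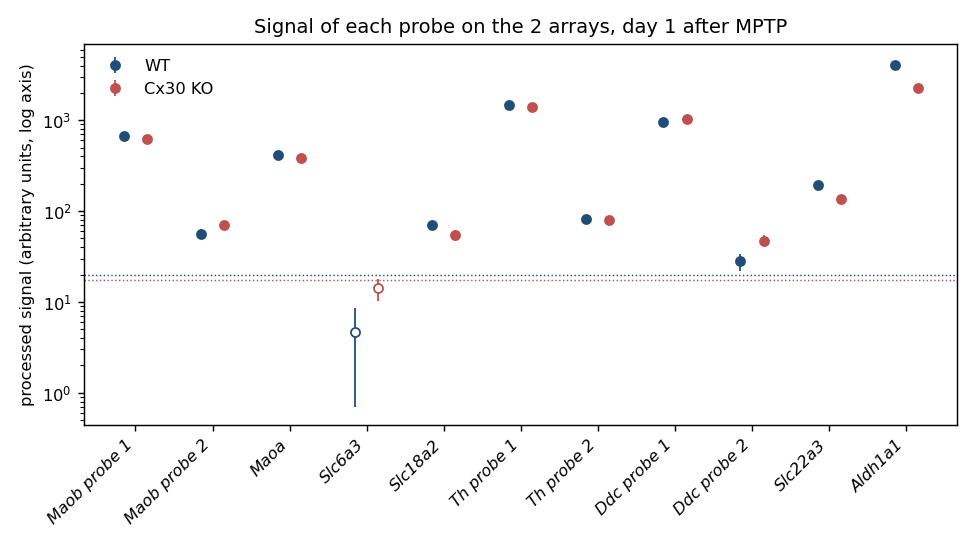
Processed signal (arbitrary units, log axis) of each of the 11 probes in WT (blue) and Cx30 KO (red), with the scanner software's error of the spot as bars. Open symbols are not well above background, and the dotted lines mark the lowest signal that was, 19.8 in WT against 17.4 in Cx30 KO. The symbols of Aldh1a1 lie apart, those of Maob probe 1, Maoa and Th nearly coincide, and Slc6a3 lies below both lines.

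By their brighter or only probe, the monoamine oxidase genes Maob and Maoa differed between the arrays by less than the spot error. Maob encodes monoamine oxidase B, the mitochondrial enzyme that turns MPTP into the precursor of MPP+ and that in the brain is found mainly in astrocytes and serotonin neurons. Its brighter probe read 675 ± 67.7 in WT against 617 ± 61.9 in Cx30 KO (log2 ratio −0.06 ± 0.20). Its second probe, 26.7 kb away within the gene, read 56.4 ± 7.03 in WT against 69.4 ± 7.88 in Cx30 KO (log2 ratio 0.37 ± 0.24). The probes thus differed in sign, by 0.43 ± 0.32 on the log2 scale. A gap at least as large was found in 28.7% of the 1867 genes with 2 detected probes of which the dimmer was below 100, so that the direction for Maob was not settled by these probes.

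Maoa encodes monoamine oxidase A, which prefers serotonin and noradrenaline as substrates and also degrades dopamine. Its only probe (chrX:16263318-16263377) read 417 ± 41.9 in WT against 383 ± 38.5 in Cx30 KO (log2 ratio −0.05 ± 0.21). Of all detected genes 38.6% had a lower ratio. General astrocyte markers, which bear on Maob because of its cell type, had a median log2 ratio of −0.03 (12 of 12 detected), from Aqp4 at −0.95, which was lower by the criteria, to Ndrg2 at 0.23. The probes of Aqp4 disagreed, with the other 3 detected ones between −4.24 and 0.02. The summed signal of the 12 astrocyte markers was 118525 in WT against 108828 in Cx30 KO. In whole striatal tissue fewer cells of a type and less RNA per cell cannot be told apart. The 3 markers of serotonin neurons, Tph2, Slc6a4 and Fev, were not well above background on either array.

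The transporters that bring dopamine and MPP+ into the neuron and its vesicles gave weak signals or were not detected. Slc6a3 encodes the dopamine transporter, the route of MPP+ into dopamine neurons. Its probe read 4.67 ± 3.98 in WT against 14.1 ± 3.74 in Cx30 KO, not well above background on either array, and no ratio is given for it. Slc18a2 encodes the vesicular monoamine transporter 2, which loads monoamines into synaptic vesicles and sequesters MPP+ there. Its probe (chr19:59370102-59370161) read 69.9 ± 8.68 in WT against 54.1 ± 7.07 in Cx30 KO. The log2 ratio was −0.30 ± 0.26, which is 1.15 times its error, with a Z-score of −0.71.

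Slc22a3 encodes the organic cation transporter 3, a low-affinity carrier of monoamines and MPP+ that is present on astrocytes. Its probe (chr17:12613499-12613558) read 195 ± 19.9 in WT against 137 ± 14.2 in Cx30 KO, a ratio of 0.741 and a log2 ratio of −0.43 ± 0.21. This difference was 2.05 times the spot error, and its Z-score of −1.23 did not reach the criteria. Of all detected genes 9.76% had a lower ratio, so that Slc22a3 came second to Aldh1a1 among the genes described here. Among 7 other transporters of organic cations and monoamines, 2 were detected. By their brightest or only probe both had lower signals in Cx30 KO, and neither met the criteria. Slc29a4, the plasma membrane monoamine transporter, read 629 ± 63.1 and 502 ± 50.4, a log2 ratio of −0.25 ± 0.20. Slc22a5, a carnitine transporter, read 255 ± 25.8 and 220 ± 22.3, a log2 ratio of −0.14 ± 0.21. That is less than its error, and the second probe of Slc22a5 gave 0.01. The noradrenaline transporter Slc6a2, the serotonin transporter Slc6a4, and Slc18a1, Slc22a2 and Slc47a1 were not well above background on either array.

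By their brighter probe, both enzymes of dopamine synthesis also differed by less than the spot error. For Ddc the log2 ratio of 0.19 was larger than the SD of 0.06 between repeated spots. Th encodes tyrosine hydroxylase, the rate-limiting enzyme of catecholamine synthesis. Its brighter probe (chr7:150078703-150078762) read 1469 ± 147 in WT against 1390 ± 139 in Cx30 KO (log2 ratio −0.01 ± 0.20). Its intron-crossing probe read 81.8 ± 9.48 in WT against 79.8 ± 9.06 in Cx30 KO (log2 ratio 0.03 ± 0.23). These differences were 0.0389 and 0.15 times their error. The log2 ratios of the probes differed by 0.04 ± 0.31, although their signals lay far apart on both arrays. Which cells the Th signals came from was not tested.

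Ddc encodes aromatic L-amino acid decarboxylase, which turns L-DOPA into dopamine. Its brighter probe read 953 ± 95.4 in WT against 1034 ± 103 in Cx30 KO (log2 ratio 0.19 ± 0.20). The second probe, 62.1 kb away and assigned by the files to another transcript of the gene, read 27.9 ± 6.07 in WT against 47.1 ± 6.68 in Cx30 KO. Its log2 ratio was 0.83 ± 0.37 with a Z-score of 1.28, so that it too did not meet the criteria. Both probes were higher in Cx30 KO, but the dimmer lay close to the limit of 19.8 in WT. A gap between probes as large as theirs, 0.64 ± 0.43, was found in 13.7% of the genes with such a dim second probe.

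**Figure D2:**
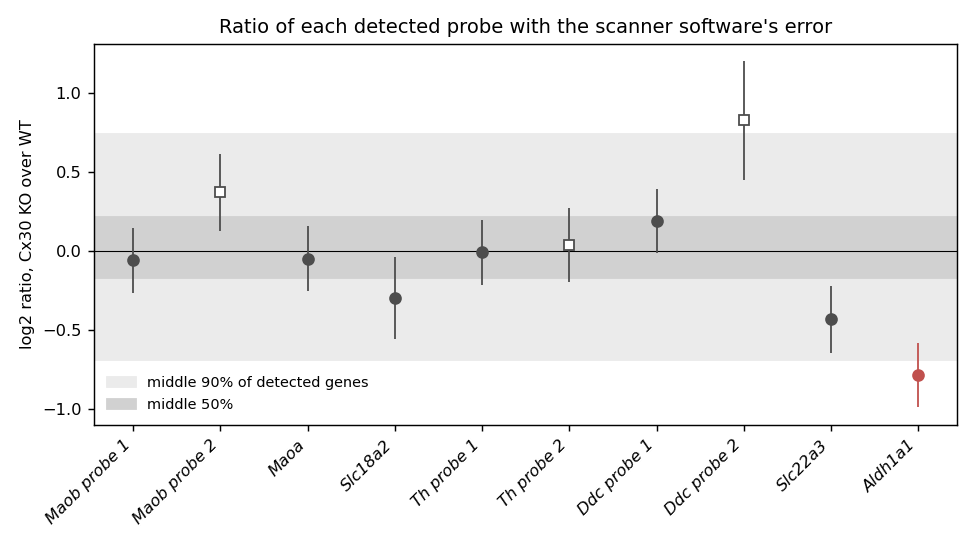
Log2 ratio of Cx30 KO over WT for the 10 detected probes, with the scanner software's error as bars. Squares are second probes, the red point meets the study's criteria, and the grey bands hold the middle 50% and 90% of the 22013 detected genes. Aldh1a1 at −0.78 lies below the wider band, the dimmer probe of Ddc at 0.83 lies above it, and Th lies at 0.

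Aldh1a1 was the gene of this set that differed most. It encodes aldehyde dehydrogenase 1A1, which oxidises the toxic aldehyde that monoamine oxidase forms from dopamine and also makes retinoic acid, and which marks the dopamine neurons of the ventral substantia nigra. Its probe read 4048 ± 405 in WT against 2236 ± 224 in Cx30 KO, 1.72-fold lower in Cx30 KO. The log2 ratio was −0.78 ± 0.20, which is 3.85 times the spot error, and the Z-score was −2.90. Of the 500 genes nearest to it in mean signal, 7 (1.40%) had a ratio as low or lower, and of all detected genes 4.04% had a lower one. A single probe in 1 spot on each array reported it, so that no second probe could be set against it. In the 7147 genes with several probes well above background on both arrays, the log2 ratios of these probes varied with an SD of 0.26. Against the SD of all probes in place of those of like signal, the Z-score of Aldh1a1 was −1.35 and missed the criteria, and no gene (0) of the 8 then met them.

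Marker lists of other cell types moved on the same arrays, and their part in the Aldh1a1 result was not tested. Pan-reactive astrocyte genes, which astrocytes raise after many kinds of injury, had a median log2 ratio of −1.23, and 10 of 12 detected genes were lower by the criteria. The study examined this list on the same arrays, so that its direction is no independent evidence. The genes ranged from Cd44 at −2.44 to Cp at 0.42, whose other 3 detected probes lay between −1.31 and −0.10, with a summed signal of 19334 in WT against 8090 in Cx30 KO. Oligodendrocyte markers had a median of −0.73, with 5 of 7 lower by the criteria, from Mog at −0.91 to Mobp at −0.44, and a summed signal of 175405 in WT against 104668 in Cx30 KO. Microglia markers had a median of −0.52, with 4 of 8 lower by the criteria, from P2ry12 at −1.69 to Itgam at 0.13. Their summed signal was 91249 in WT against 83919 in Cx30 KO, of which Itgam alone gave 60045 and 62438. Striatal neuron markers had a median of −0.16, with none of 9 meeting the criteria, from Pde10a at −0.40 to Ppp1r1b at 0.23, and reference genes one of −0.04, from Sdha at −0.13 to Actb at 0.14.

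Aldh1a1 is not alone in breaking down the products of monoamine oxidase. The genes of a list of dopamine and aldehyde breakdown differed by less than the spot error by their brightest probes. The list of 8 genes holds further aldehyde dehydrogenases and other enzymes that act on aldehydes or alcohols. Not all of them are known to act on the dopamine aldehyde. All 8 were detected, none met the criteria, and their log2 ratios lay between −0.15 and 0.12 with a median of 0.03. The brightest, the aldehyde reductase Akr1a1, read 24740 ± 2474 in WT against 25566 ± 2557 in Cx30 KO (log2 ratio 0.12). Aldh2, the mitochondrial enzyme that shares the dopamine aldehyde with Aldh1a1, read 2992 ± 299 in WT against 2929 ± 293 in Cx30 KO. Its log2 ratio was 0.04, and its other 3 probes lay between 0.00263 and 0.05. Further probes varied more: 1 of Aldh3a2 gave 1.16, where the brightest probe of that gene gave −0.05, and the second probes of Aldh9a1 and Akr1b3 gave 0.25 and −0.17.

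Tyrosine hydroxylase needs tetrahydrobiopterin as a cofactor, and several genes that supply it read lower in Cx30 KO. In a list of 8 genes of cofactor supply and later catecholamine steps, 7 were detected, with a median log2 ratio of −0.50. Of these, 6 had a negative log2 ratio, 2 of them lower by the criteria. The median is the value of Gchfr, a dim gene that read 56.0 ± 7.68 in WT against 37.6 ± 5.97 in Cx30 KO (log2 ratio −0.50 ± 0.30). Pcbd1, also among the 6, differed by less than the spot error (log2 ratio −0.02 ± 0.21). Pts, the second enzyme of cofactor synthesis, read 400 ± 40.3 in WT against 120 ± 12.6 in Cx30 KO (log2 ratio −1.66 ± 0.21, Z-score −4.65). Qdpr, which regenerates the used cofactor, read 18868 ± 1887 in WT against 10573 ± 1057 in Cx30 KO (log2 ratio −0.76 ± 0.20) and had a Z-score of −3.68, and its other 2 probes gave −0.84 and −0.83. Spr, which completes the synthesis, read 1613 ± 161 and 1208 ± 121, a log2 ratio of −0.35 that did not meet the criteria.

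Gch1, the rate-limiting enzyme of the cofactor, named here after its values were seen, read 212 ± 21.6 in WT against 127 ± 13.2 in Cx30 KO. Its ratio of 0.629 passed the limit, but its Z-score of −1.84 did not. The Gch1 probe lies on chromosome 14, 9.97 Mb from that of Gjb6. The oligodendrocyte and pan-reactive astrocyte markers given above moved in the same direction as Pts and Qdpr, and their part in these values was not tested. Dbh, which makes noradrenaline, was not well above background on either array, and Pnmt, which makes adrenaline, read 97.5 ± 10.74 in WT against 154 ± 15.9 in Cx30 KO (log2 ratio 0.73, Z-score 1.81).

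**Figure D3:**
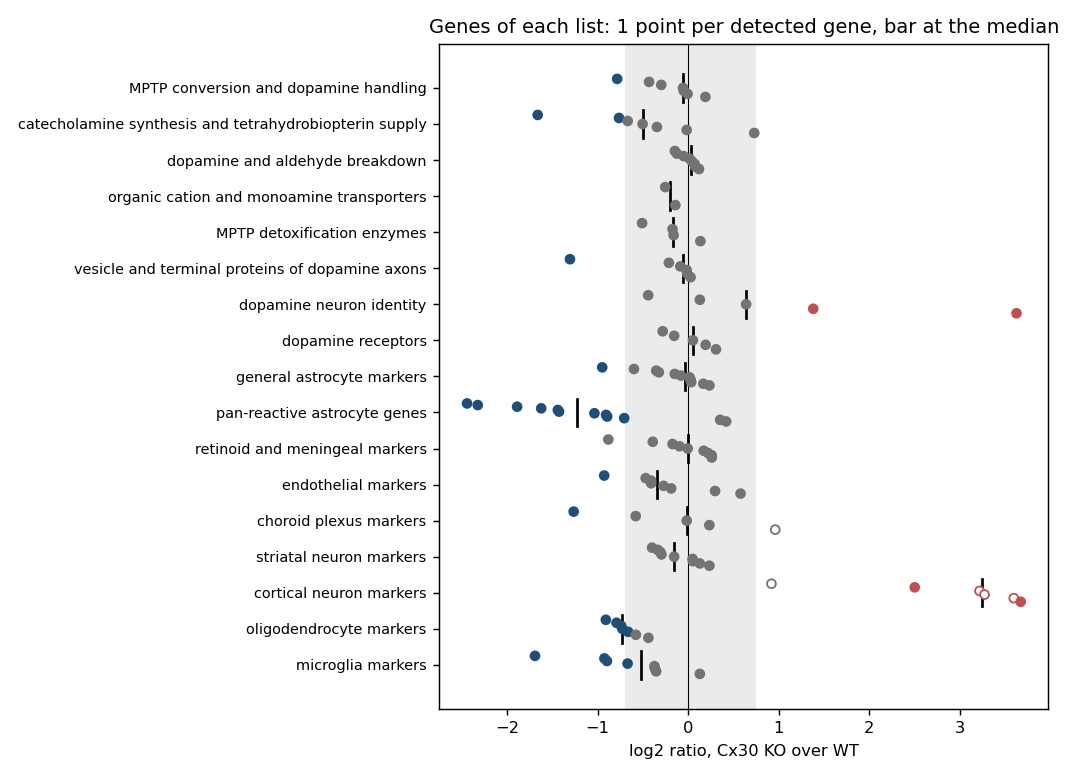
Log2 ratio of Cx30 KO over WT for each detected gene of the lists of dopamine and MPTP genes and of cell type markers, with a bar at each list's median. Blue and red points are lower and higher by the study's criteria, grey points meet neither, open points were well above background on 1 array only, and the grey band holds the middle 90% of detected genes. The breakdown enzymes crowd around 0, most of the cofactor genes lie to the left, and Nr4a2 lies at 3.62 in the row of dopamine neuron identity.

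Other proteins of dopamine axons were mostly alike between the arrays. In a list of 8 vesicle and terminal genes 6 were detected and 1 was lower by the criteria, with a median log2 ratio of −0.05. The brightest, Park7, an oxidative stress sensor that is mutated in familial Parkinson's disease, read 11021 ± 1102 and 10403 ± 1040, a log2 ratio of −0.01. Sncg, which encodes γ-synuclein, read 230 ± 23.4 in WT against 88.5 ± 9.63 in Cx30 KO (log2 ratio −1.31 ± 0.21, Z-score −3.44). Its second probe gave only −0.24, so that the probes of Sncg differ in size, and neither that probe alone nor the mean of both met the criteria. The Sncg probe also lies on chromosome 14, 22.6 Mb from that of Gjb6. The nicotinic receptor subunits Chrna6 and Chrnb3, which are typical of dopamine axons, were not well above background on either array.

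The transcription factors and other genes that give midbrain dopamine neurons their identity were detected in part. Of 10 listed, 5 were detected, and Lmx1a, Foxa1, Foxa2, En1 and Ret were not well above background on either array. Nr4a2, which encodes the nuclear receptor Nurr1, read 74.2 ± 8.45 in WT against 871 ± 87.2 in Cx30 KO (log2 ratio 3.62 ± 0.22, Z-score 9.42), and its second probe gave 3.27. Dlk1 read 316 ± 31.9 and 781 ± 78.2, a log2 ratio of 1.38 ± 0.21 with a Z-score of 4.49, and its second probe gave 1.504. Lmx1b, the brightest that met neither criterion, read 116 ± 12.3 and 120 ± 12.5, a log2 ratio of 0.13.

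Nr4a2 is also expressed by neurons of the deep cortical layers and the claustrum, close to the striatum. All 6 cortical neuron markers were higher in Cx30 KO, 5 of them by the criteria. Only 2 were well above background on both arrays: Neurod2 read 49.0 ± 6.43 in WT against 594 ± 59.5 in Cx30 KO (log2 ratio 3.67), and Tbr1 read 78.6 ± 9.47 and 423 ± 42.6, a log2 ratio of 2.50. Slc17a7, the glutamate transporter of cortical neurons, was at least 12.1-fold higher in Cx30 KO, where only that array was well above background. The summed signal of the 6 was 175 in WT against 1391 in Cx30 KO. Their part in the Nr4a2 and Dlk1 values, and in those of the genes that handle MPTP and dopamine, was not tested.

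Dopamine receptors and the genes of a list of MPTP detoxification enzymes met the criteria in no case (0). All 5 dopamine receptor genes were detected, with log2 ratios from −0.28 for Drd3 to 0.31 for Drd4 and a median of 0.05. Drd1, the brightest, read 19972 ± 1997 in WT against 19702 ± 1970 in Cx30 KO (log2 ratio 0.05). Of the 6 enzymes listed for MPTP detoxification, whose action on MPTP was not examined here, 4 were detected. Their log2 ratios had a median of −0.17 and a highest value of 0.13. The lowest, −0.51 ± 0.26, was that of Fmo5, which read only 66.9 ± 8.15 in WT against 44.7 ± 6.10 in Cx30 KO. The brightest of them, the aldehyde oxidase Aox1, read 268 ± 27.1 and 226 ± 22.9, a log2 ratio of −0.17, and Fmo2 and Cyp2e1 were not well above background on either array.

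The order of the genes by ratio changed little with the processing. Among the 7 genes Aldh1a1 was the lowest and Slc22a3 the next lowest under each of 8 other ways of scaling, background correction, filtering or choosing probes, of which 4 cannot alter a gene with a single detected probe such as these, with ranges of −0.83 to −0.76 and −0.48 to −0.35. Ddc was the highest under each of them. The sign of Maob changed with the choice of probe, and that of Th, always within 0.06 of 0, with the choice of probe and with normexp background correction followed by quantile normalisation.

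**Figure D4:**
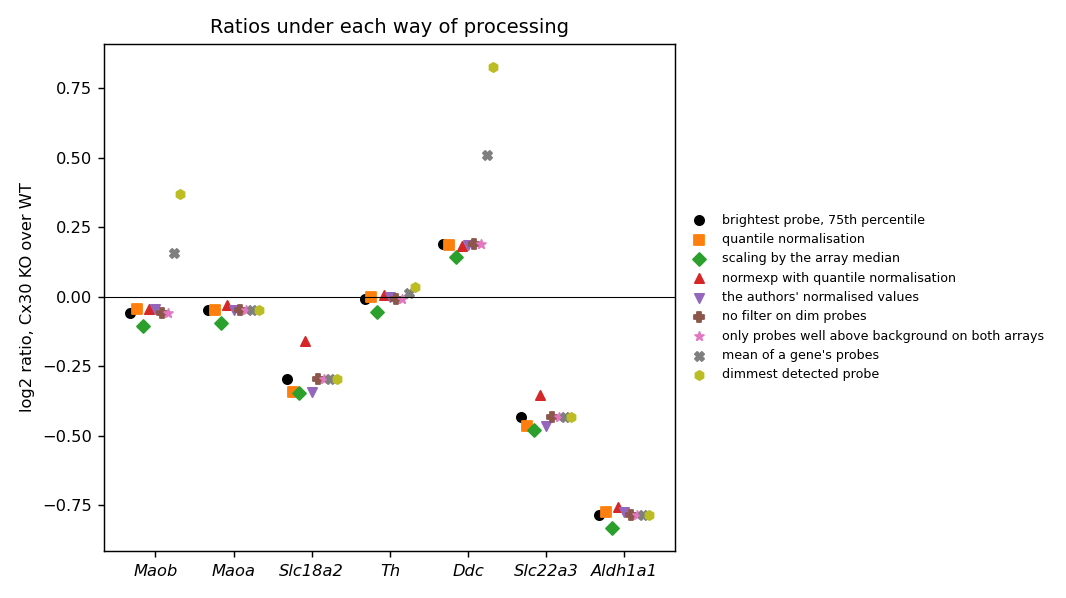
Log2 ratio of Cx30 KO over WT for the 7 detected genes under each way of processing, 1 symbol each. The symbols of Aldh1a1 lie together between −0.83 and −0.76, whereas those of Maob and Ddc spread upwards to 0.37 and 0.83 when their dimmer probes are used.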

How the data were processed

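Total RNA of the striatum, pooled from 2 mice for each genotype, was labelled with Cy3 and hybridised to 60-mer Agilent arrays. The authors extracted the spots with Agilent Feature Extraction (version 9.5.1.1 per the labels, 10.7.1.1 per the file headers). The deposited processed signals are linear intensities, corrected for background and for trends within each array, and not normalised between arrays. The authors' table of 1 intensity for each probe and array was checked against the quantile-normalised processed signals and lies within 1% of them for 99.991% of values. It was used as an alternative.

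Control spots and outlier spots were left out, log2 signals were averaged over the spots of a probe, and each array was scaled to its 75th percentile. Detection required that the software marked 50% or more of the spots of a probe as well above background. The brightest such probe stood for a gene. Z-scores used the mean and SD of the 1000 probes closest to a probe in mean log2 signal, since the methods name no set of probes. Older gene names were replaced through a RefSeq table (GRCm38.p6), by accession for 32994 of 56605 probes. Where only 1 array was well above background, the fold is a lower bound, set by the higher of the lowest signal that counted and the probe's own signal on the other array. Precision is limited by the number of arrays.

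The genes and lists were chosen with earlier results of these data known. Named are all 8 genes with every probe, of the other dopamine and MPTP lists the genes that met the criteria and the brightest that did not, and of marker lists the highest and lowest ratio among genes well above background on both arrays. Genes not detected and a few named for their role were added after their values were seen. Tried as alternatives were scaling by the median, quantile normalisation, normexp with an offset of 50 and quantile normalisation (limma 3.58.1, R 4.3.3), the authors' values, no filter on dim probes, detection on both arrays, the mean or the dimmest of a gene's probes, Z-scores over all or the 200 nearest probes, and ratio limits of 2 and 0.5. The code (Python 3.11.15, numpy 2.4.6, pandas 2.3.3) was tested on simulated data. Arrays of untreated mice were not analysed here. Some items are not reported here.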

Additional observations from a re-analysis of the deposited data

How the results depend on the processing

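Aldh1a1 kept its direction throughout and met the criteria under 9 of 11 alternatives, of which the 4 that change the filter or the choice of probe leave a gene with a single detected probe as it is. With a Z-score over all probes, and with ratio limits of 2 and 0.5, the number of the 8 genes lower by the criteria was 0 in place of 1, and the number higher was 0 throughout. Averaged over the probes of a gene, the log2 ratio was 0.16 for Maob and 0.51 for Ddc, and with the dimmest detected probe it was 0.37 and 0.83, as their probes differ. The ratios of Maoa, Slc18a2, Th, Slc22a3 and Aldh1a1 moved by less than their spot error under 8 alternatives, but for all of these except Th only 4 could change the value. The median of the detected genes lay between −0.11 and −0.05. Of the other dopamine genes that met the criteria, Pts, Nr4a2 and Dlk1 met them under all 11 alternatives. Qdpr missed them with the Z-score over all probes and with the ratio limits of 2 and 0.5, and Sncg with the mean and with the dimmest of its probes. The median of the dopamine identity list fell from 0.64 to 0.15 with normexp and to 0.03 without the filter on dim probes. The value of 0.64 is that of Pitx3, which read 22.2 ± 4.93 in WT, close to the limit of 19.8, against 32.9 ± 5.13 in Cx30 KO. With normexp the median of the cortical neuron markers fell from 3.24 to 1.26. No paired analysis was possible because each genotype has 1 array, and for the same reason no replicate could be left out. Probes near background, those of Slc6a3 and the dimmer one of Ddc, limit what can be read for these genes.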

Other observations

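Aldh1a1 also belongs to the retinoic acid pathway, and genes of that pathway and of the meninges, where retinoid enzymes are expressed, were looked at on the same arrays. Of 11 such genes on the array 9 were detected, none met the criteria, and their median log2 ratio was −0.01. They ranged from Slc22a8, an organic anion transporter, at −0.88 with a Z-score of −1.94 to the collagen gene Col1a1 at 0.26. Aldh1a2, which makes retinoic acid in the meninges, read 47.0 ± 6.30 in WT against 44.5 ± 5.78 in Cx30 KO (log2 ratio −0.01). The summed signal of the 9 was 13812 in WT against 12094 in Cx30 KO.

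MPTP enters the brain across vessels, and of 8 endothelial markers 1 was lower by the criteria, with a median log2 ratio of −0.34. They ranged from Flt1 at −0.93, whose other 2 probes gave −0.15 and 0.52, to Pecam1 at 0.58. Of 8 choroid plexus markers 5 were detected, 4 of them on both arrays, from Ttr at −1.27, which was lower by the criteria, to Kl at 0.23. With 1 array for each genotype none of these differences could be tested.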
